A study of Sus scrofa with 8 samples.

Results

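Alcohol and aldehyde dehydrogenase genes, 8 of the 30550 genes in an expression table of pig heart, are described here. They are the alcohol dehydrogenases ADH1C and ADH5 and the aldehyde dehydrogenases ALDH1A1, ALDH1A2, ALDH2, ALDH3A2, ALDH7A1 and ALDH9A1. These 8 genes were chosen by name from the FPKM values of the same libraries, with the difference between the groups in view. Their differences are therefore given as a description with no test of their own. All 8 were found by symbol and all 8 passed the filter on low values, which kept 10757 genes with at least 1 FPKM (fragment counts scaled by gene length and library size, a level per gene length) in at least 4 of the 8 libraries.

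The groups were 4 libraries from pigs (Sus scrofa) heterozygous for a knockout of PKP2 (PKP2_het) and 4 libraries from wild-type pigs (WT). All were made from RNA of the right ventricle. PKP2 encodes plakophilin 2, a plaque protein of the desmosomes that hold heart muscle cells together, and the study presents the heterozygous knockout as a pig model of arrhythmogenic cardiomyopathy. The labels give no breed, age, sex, litter, founder line or editing method, and the extraction protocol writes the genotype as PKP+/- while the titles write PKP2. They do not say that each library is a separate animal, so p-values measure only the spread between these libraries, which may be technical.

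Alcohol dehydrogenases remove hydrogen from alcohols to give aldehydes, and aldehyde dehydrogenases carry aldehydes on to acids. In heart muscle these enzymes clear reactive aldehydes that come from alcohol, from amines and from oxidised membrane lipid, and several members also serve a single metabolic route. Retinol is turned into retinaldehyde and then into retinoic acid by the same pair of steps, and retinoic acid is a ligand of nuclear receptors.

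The libraries held between 23637697 and 31313628 fragments assigned to genes. PKP2 was at 45.4, 40.7, 24.6 and 45.9 FPKM in PKP2_het libraries and at 52.9, 62.2, 61.1 and 72.8 FPKM in WT libraries, so every PKP2_het library was below every WT library (two-sided exact permutation p = 0.0286, the smallest that 4 against 4 libraries can give). In limma over all genes PKP2 was not called (log2 difference -0.69, adjusted p = 0.164). PKP2_het replicate 3 stood apart, with 52.1% of its fragments from mitochondrial genes, against 21.1% to 33.4% in the other PKP2_het libraries and 22.0% to 37.6% in WT libraries. The labels name cardiomyocytes, and cardiomyocyte markers dominated, with a summed level of 31551 to 45790 FPKM in PKP2_het and 32597 to 37753 FPKM in WT. The sum hides a split in PKP2_het replicate 3. That library was the lowest for MYH7 (1965 FPKM), ACTC1 (1633 FPKM) and MYBPC3 (833 FPKM). It was the highest for TNNT2, TNNI3, MYL2, MYL3 and TNNC1, and the reason was not tested. Fibroblast markers (260 to 547 FPKM in PKP2_het, 288 to 362 FPKM in WT), endothelial markers (207 to 426 FPKM in PKP2_het, 246 to 488 FPKM in WT) and smooth muscle and pericyte markers (281 to 451 FPKM in PKP2_het, 294 to 446 FPKM in WT) were present too, as the protocol's whole tissue implies. The labels mark no batch.

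Across all genes tested, limma with Benjamini-Hochberg adjustment at 0.05 called 1.15% higher and 0.707% lower in PKP2_het, and the median log2 difference of all 10757 genes was -0.02. Of the 8 dehydrogenase genes, ADH1C was called higher and ALDH2 lower. Neither was called with the replicate number as a block, and ADH1C drops out where 1 FPKM is required in all 8 libraries. The ranges of the groups did not overlap for ADH1C and ADH5, both higher in PKP2_het, and for ALDH2, lower in PKP2_het. Over all tested genes, 4.86% had every PKP2_het library above every WT library and 4.33% the reverse. Because these values chose the genes, nothing is read from the counts.

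ADH1C encodes a class I alcohol dehydrogenase, the type known for oxidising ethanol and retinol in the liver. Its level was 2.35, 5.28, 2.78 and 2.37 FPKM in PKP2_het libraries, against 0.548, 0.392, 1.01 and 0.444 FPKM in WT libraries. The highest WT library, replicate 3, lay below the lowest PKP2_het library, and PKP2_het replicate 2 was set well above the other libraries of its group. ADH1C averaged 3.20 ± 1.40 FPKM in the PKP2_het libraries and 0.597 ± 0.280 FPKM in the WT libraries (SD, n = 4 each), a ratio of 5.35, and the log2 difference of FPKM + 1 was 1.36 with a standard error (SE) of 0.21. In bulk tissue, a different number of cells of a type and a different amount of RNA per cell cannot be told apart, for this gene and for those below.

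These levels rest on few fragments. ADH1C had 100, 234, 100 and 97 fragments in PKP2_het libraries and 18, 18, 49 and 20 fragments in WT libraries. For WT replicate 1, 18 fragments carry an exact 95% Poisson interval of 10.7 to 28.4, or 0.325 to 0.866 FPKM, which covers counting error only. ADH1C reached 1 FPKM in all 4 PKP2_het libraries but in 1 WT library, so it passed the filter only through the group where it was high. Its mean over the 8 libraries was above 15.2% of the genes tested, which makes it one of the lower transcripts of the set.

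In the pig assembly Sscrofa11.1, ADH1C (gene 100512615) occupies chromosome 8 from 121089355 to 121105010 on the plus strand, inside a cluster of alcohol dehydrogenase genes. The whole of ADH1C also falls within the span of C8H4orf17 on the minus strand, a gene that reached at most 0.108 FPKM and had 38 fragments over all 8 libraries. The study does not say whether fragments were counted by strand, so reads of the overlapping genes cannot be told apart. C8H4orf17 is annotated over 120918456 to 121266698 and is one of the 3 nearest genes upstream of ADH1C by position, with TRMT10A and the class 4 type LOC100512795. TRMT10A, a tRNA methyltransferase gene, had a log2 difference of 0.24 (limma adjusted p = 0.440). The class 4 gene had 2 fragments in all libraries together, and the 3 genes on the other side, LOC110262184 (ADH1-like), LOC110262185 and LOC110261964 (ADH6-like), had 4, 0 and 0. The class II gene ADH4 of the cluster had 6 fragments. ADH1C was therefore the one gene of the class I, II and IV types in this cluster with more than 6 fragments.

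**Figure D1:**
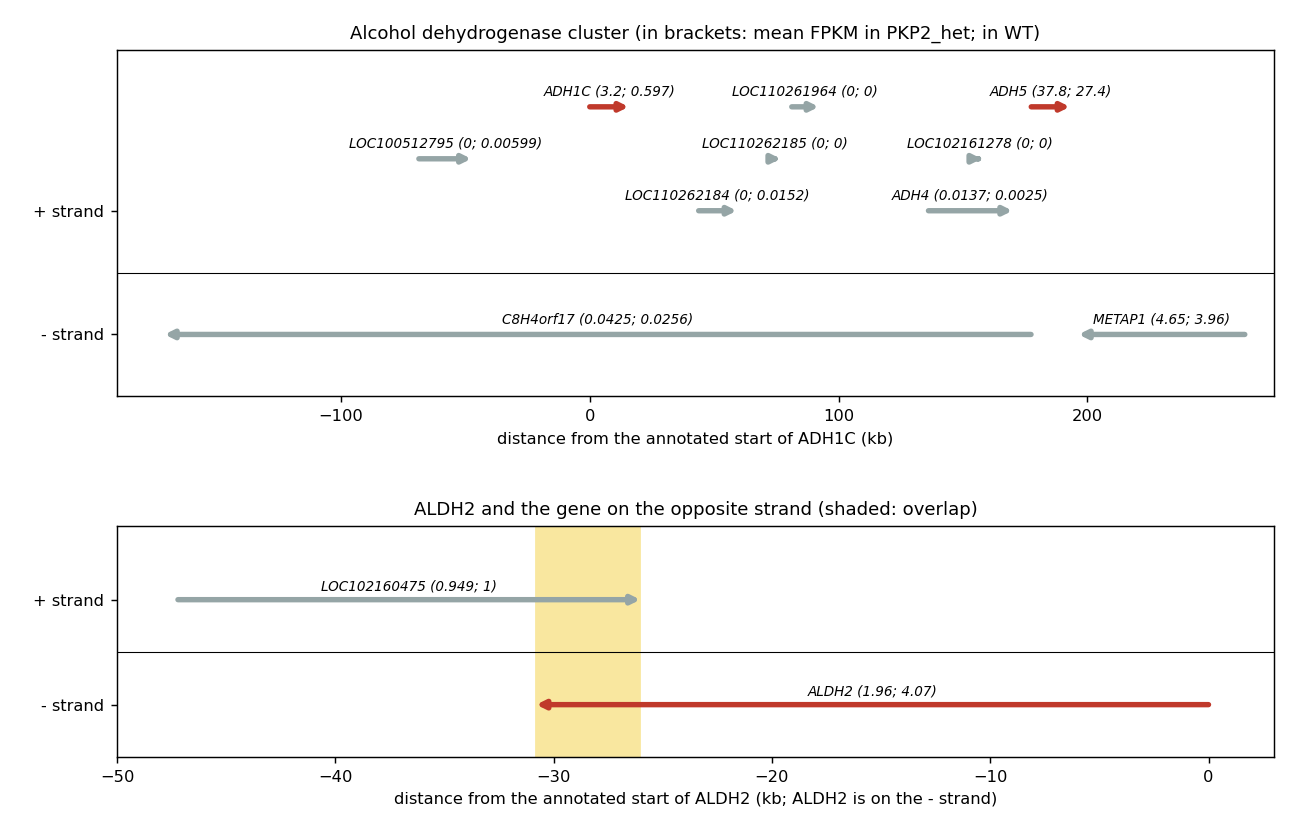
Genes around ADH1C and ADH5 (top) and around ALDH2 (bottom), drawn to scale as arrows by strand, with distance in kb from the start of ADH1C or of ALDH2 and the mean FPKM in PKP2_het, then in WT, in brackets. Between the genes at or near 0 FPKM, ADH1C and ADH5 stand at 3.20 and 37.8 FPKM in PKP2_het and 0.597 and 27.4 FPKM in WT, and the shaded band marks the bases that ALDH2 shares with LOC102160475.

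ADH5, at the far end of the same cluster (gene 100513555, chromosome 8, 121266794 to 121282313, plus strand), encodes the class III enzyme, which oxidises the glutathione adduct of formaldehyde and also breaks down S-nitrosoglutathione. It was the most abundant of the 8 genes per length. ADH5 was at 40.8, 34.5, 34.8 and 40.9 FPKM in PKP2_het libraries and at 26.5, 29.0, 25.6 and 28.3 FPKM in WT libraries. The groups did not overlap, and the spread within each group was small. Mean ADH5 was 37.8 ± 3.59 FPKM in the PKP2_het libraries and 27.4 ± 1.57 FPKM in the WT libraries (SD, n = 4 each), a ratio of 1.38 with a log2 difference of 0.45 (SE 0.11). ADH5 was not called over all genes. With libraries rescaled to equal FPKM sums, the log2 difference of ADH5 was 0.19, while that rescaling moved the median of all tested genes to -0.23.

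METAP1, a methionine aminopeptidase gene just beyond ADH5, was at 5.52, 4.56, 2.88 and 5.64 FPKM in PKP2_het libraries and at 3.63, 4.09, 3.86 and 4.28 FPKM in WT libraries, with overlapping groups (log2 difference 0.16, limma adjusted p = 0.723). An ADH5 pseudogene on chromosome 2, LOC100525630, was given 0 fragments. A second row under the symbol ADH4 covers 1001 bases of the X chromosome, 98582002 to 98583002 on the minus strand, overlaps no other gene of the table and carries a gene ID with an added suffix. It was at 13.1, 10.6, 15.6 and 9.59 FPKM in PKP2_het and at 7.33, 7.10, 10.2 and 6.67 FPKM in WT (log2 difference 0.58, SE 0.17, limma adjusted p = 0.169). That row is not the ADH4 gene of the cluster, and what it represents is not given in the sources used here.

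A pair of members makes retinoic acid by oxidising retinaldehyde. ALDH1A1 (gene 100517137, chromosome 1, 226163347 to 226217342, minus strand) was at 5.65, 6.08, 3.51 and 3.40 FPKM in PKP2_het libraries, against 3.50, 1.95, 3.37 and 2.79 FPKM in WT libraries. PKP2_het replicates 1 and 2 were well above every WT library, while PKP2_het replicates 3 and 4 lay close to the highest WT level, so the groups overlapped. Mean ALDH1A1 was 4.66 ± 1.40 FPKM in the PKP2_het libraries and 2.90 ± 0.707 FPKM in the WT libraries (SD, n = 4 each), with a ratio of 1.61 and a log2 difference of 0.52 (SE 0.20).

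ALDH1A2, the sister enzyme and the main source of retinoic acid in the mouse embryo (gene 100737077, chromosome 1, 113932722 to 114037059, plus strand), was at 3.83, 5.46, 3.95 and 4.34 FPKM in PKP2_het libraries. In WT libraries ALDH1A2 was at 3.97, 2.13, 2.11 and 2.95 FPKM. WT replicate 1 lay inside the PKP2_het range and the other WT libraries lay below it. ALDH1A2 averaged 4.40 ± 0.742 FPKM in the PKP2_het libraries and 2.79 ± 0.879 FPKM in the WT libraries (SD, n = 4 each), with a ratio of 1.57 and a log2 difference of 0.53 (SE 0.17). ALDH1A1 and ALDH1A2 both had their highest library in PKP2_het replicate 2. Their summed level was 9.48, 11.5, 7.46 and 7.74 FPKM in PKP2_het libraries and 7.47, 4.08, 5.48 and 5.74 FPKM in WT libraries, where WT replicate 1 slightly passed PKP2_het replicate 3. Neither gene was called. ALDH1A3, a further ALDH1A gene that is not a member, averaged 1.90 FPKM in PKP2_het and 1.78 FPKM in WT. Its groups overlapped (log2 difference 0.06, limma adjusted p = 0.844).

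ALDH2 encodes the mitochondrial enzyme that clears acetaldehyde and the lipid peroxidation product 4-hydroxynonenal. ALDH2 was at 2.82, 2.32, 1.37 and 1.31 FPKM in PKP2_het libraries, against 3.94, 3.71, 4.05 and 4.60 FPKM in WT libraries. Every PKP2_het library was below every WT library, and PKP2_het replicates 3 and 4 were the lowest. ALDH2 averaged 1.96 ± 0.739 FPKM in the PKP2_het libraries and 4.07 ± 0.376 FPKM in the WT libraries (SD, n = 4 each), so PKP2_het stood at 48.0% of WT, with a log2 difference of -0.81 (SE 0.17). Fragments numbered 163, 140, 67 and 73 in PKP2_het libraries and 176, 232, 268 and 282 in WT libraries. ALDH2 had rank 8 of the 8 genes in PKP2_het and rank 5 in WT.

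The call of ALDH2 was lost in 13 of the 17 other ways of processing, and its log2 difference ran from -1.11 to -0.70 over them. Leaving out PKP2_het replicate 3 gave -0.72, and ALDH2 was then not called. ALDH2 (gene 733685) lies on chromosome 14 from 39902317 to 39933113 on the minus strand. It shares 4768 bases, 15.5% of its span, with LOC102160475 on the plus strand, which runs from 39885906 to 39907084. The shared stretch is the 3′ end of ALDH2. LOC102160475 is described as laforin-like but its protein annotation in the table is that of ALDH2, and it was at 0.594, 0.793, 1.15 and 1.26 FPKM in PKP2_het and at 0.961, 1.04, 1.28 and 0.720 FPKM in WT. Its 2 group means, 0.949 FPKM in PKP2_het and 1.00 FPKM in WT, were close while those of ALDH2 were not, and how reads of the shared stretch were assigned was not tested.

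The 3 other members did not separate the groups. ALDH3A2 encodes the fatty aldehyde dehydrogenase of the endoplasmic reticulum, which in people is mutated in Sjögren-Larsson syndrome (gene 100525303, chromosome 12, 59936838 to 59953677, minus strand). ALDH3A2 was at 27.1, 25.5, 16.9 and 30.1 FPKM in PKP2_het libraries and at 21.5, 25.9, 27.9 and 26.6 FPKM in WT libraries. PKP2_het replicate 3 was the lowest library and PKP2_het replicate 4 the highest, so the WT range lay inside that of PKP2_het. The log2 difference was -0.05 (SE 0.18), and 0.11 without PKP2_het replicate 3.

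ALDH7A1 encodes the enzyme that oxidises aminoadipic semialdehyde in lysine breakdown (gene 106504110, chromosome 2, 129663226 to 129709728, minus strand). ALDH7A1 was at 4.52, 4.37, 3.76 and 4.88 FPKM in PKP2_het libraries and at 6.78, 3.49, 4.15 and 6.33 FPKM in WT libraries. The WT libraries fell into a high pair, replicates 1 and 4, and a low pair, replicates 2 and 3, on either side of most PKP2_het libraries. The log2 difference was -0.17 (SE 0.18). A short gene within ALDH7A1 on the other strand, LOC110259133, reached at most 0.064 FPKM.

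ALDH9A1 encodes the trimethylaminobutyraldehyde dehydrogenase of carnitine synthesis (gene 100153809, chromosome 4, 85029914 to 85057650, plus strand). ALDH9A1 was at 22.8, 23.8, 20.0 and 23.4 FPKM in PKP2_het libraries and at 18.1, 21.1, 22.8 and 20.6 FPKM in WT libraries, with a log2 difference of 0.12 (SE 0.11). It varied least of the 8, with its highest library 1.32 times its lowest. The same ratio was 13.5 for ADH1C, 3.51 for ALDH2, 3.12 for ALDH1A1 and 2.59 for ALDH1A2, and between 1.60 and 1.94 for ADH5, ALDH3A2 and ALDH7A1.

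**Figure D2:**
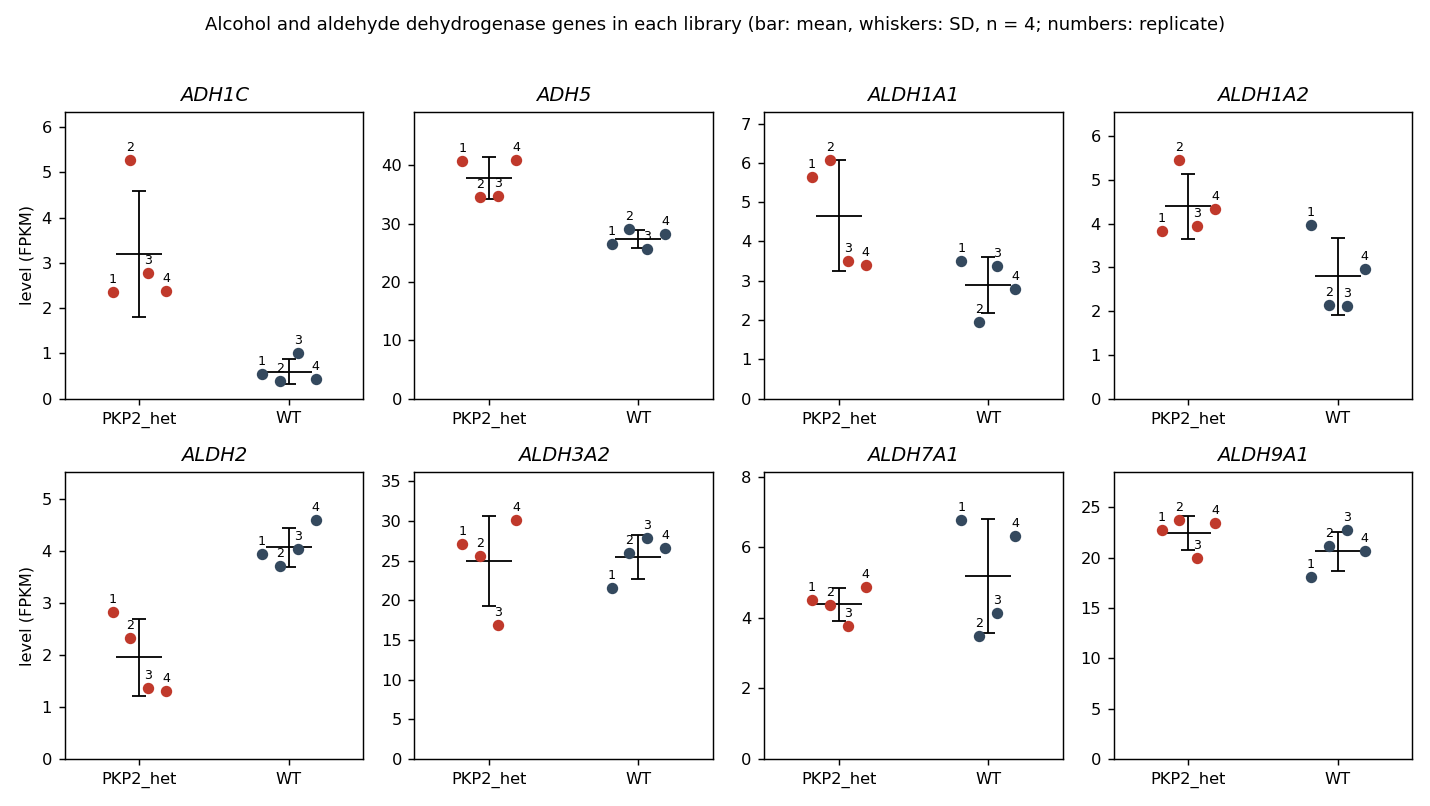
Level in FPKM (vertical axis, from 0, a separate scale for each gene) of the 8 genes in each library of PKP2_het (red, left) and WT (blue, right), with replicate numbers, the mean as a bar and the SD as whiskers (n = 4). ADH1C and ADH5 lie wholly higher and ALDH2 wholly lower in PKP2_het, and the groups overlap for the other 5 genes.

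By level per gene length, the 8 genes formed a high and a low tier in both groups. ADH5, ALDH3A2 and ALDH9A1 made the high tier, in this order of means, and ALDH3A2 and ALDH9A1 overlapped in both groups. ADH5 and ALDH3A2 overlapped in WT, at 25.6 to 29.0 FPKM and 21.5 to 27.9 FPKM, but not in PKP2_het, at 34.5 to 40.9 FPKM and 16.9 to 30.1 FPKM. The low tier in PKP2_het ran from ALDH1A1 through ALDH1A2, ALDH7A1 and ADH1C to ALDH2, each overlapping its neighbours. In WT the low tier ran from ALDH7A1 and ALDH2, which overlapped, to ALDH1A1 and ALDH1A2, which overlapped with each other, and then to ADH1C. The pairs were not cleanly apart, since ALDH1A2 in WT replicate 1 (3.97 FPKM) lay inside the WT range of ALDH2 (3.71 to 4.60 FPKM), while ADH1C lay below all the others in WT. The sum of the 8 genes was 110, 107, 87.1 and 111 FPKM in PKP2_het libraries and 84.8, 87.8, 91.0 and 92.6 FPKM in WT libraries.

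The size of the differences, but not the direction of ADH1C, ADH5, ALDH1A1, ALDH1A2 and ALDH2, moved with the processing. Because these values chose the members, a kept direction is a description and no support. For ADH1C, ADH5 and ALDH2 the groups did not overlap, so leaving out a library or changing the pseudocount could not have reversed it. ADH1C had a log2 difference of 2.23 with a pseudocount of 0.1 and of 2.41 in limma voom on recovered fragments, since a pseudocount of 1 shrinks differences of low genes. ALDH3A2 ran from -0.31 to 0.11 and ALDH9A1 from -0.14 to 0.17, both on the log2 scale, so neither has a settled sign. ALDH7A1 stayed negative but ran from -0.37 to -0.0034, beside an SE of 0.18 with all libraries, so its sign is not settled either. Without PKP2_het replicate 3, limma called 1.81% of the tested genes higher and 1.11% lower, ADH1C and ADH5 were called higher and no member was called lower.

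**Figure D3:**
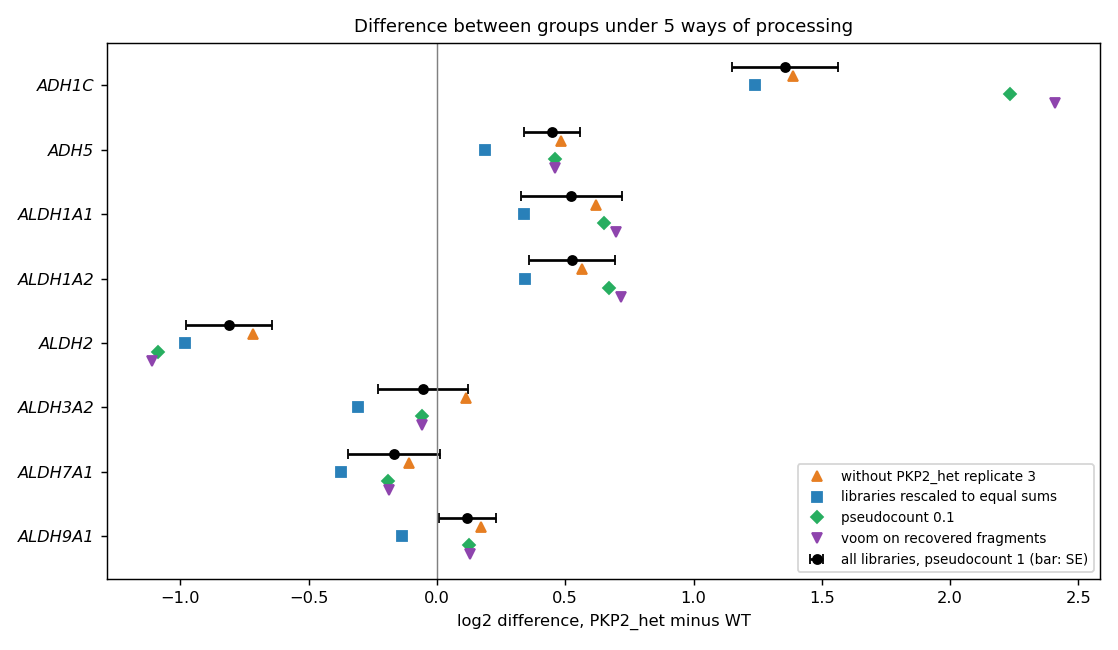
Log2 difference of PKP2_het minus WT (horizontal axis) for the 8 genes with all libraries and a pseudocount of 1 (black, bar: SE) and under 4 other ways of processing (coloured markers). ADH1C runs from 1.24 to 2.41, ALDH2 stays below 0 throughout, and ADH5 drops to 0.19 when libraries are scaled to equal sums.

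The other alcohol and aldehyde dehydrogenases showed no gene called by limma. At an unadjusted p under 0.05 they held 1 of 9 tested genes, ALDH1L2, beside 1381 of the 10757 genes tested in all, and limma voom on recovered fragments also called none. Of 6 other alcohol dehydrogenases listed, 4 were matched and ADHFE1, which moves hydrogen from hydroxybutyrate to ketoglutarate, was tested (log2 difference -0.26, limma adjusted p = 0.639). All 13 other aldehyde dehydrogenases were matched and 8 were tested, with 3 positive and 5 negative log2 differences and a median of -0.02, the same as all tested genes. ALDH1L2, the mitochondrial formyltetrahydrofolate dehydrogenase, was lower without passing the adjustment (log2 difference -0.28, limma adjusted p = 0.283). ALDH8A1 was listed at 0 FPKM in every library.

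ALDH6A1, which acts on methylmalonate semialdehyde in valine breakdown, split the PKP2_het libraries. Its level was 27.9, 29.2, 10.3 and 27.8 FPKM in PKP2_het libraries, against 15.0, 14.8, 16.6 and 14.5 FPKM in WT libraries. PKP2_het replicates 1, 2 and 4 were well above every WT library and PKP2_het replicate 3 was below all of them. With all libraries the log2 difference was 0.51 (SE 0.29, limma adjusted p = 0.516). Without PKP2_het replicate 3 ALDH6A1 was called higher, at 28.3 ± 0.785 FPKM in PKP2_het (SD, n = 3) and 15.2 ± 0.919 FPKM in WT (SD, n = 4), with a log2 difference of 0.86 (SE 0.08, limma adjusted p = 0.00105). It was also called with library quality weights (0.84, limma adjusted p = 0.00409). That estimate lay near the one without PKP2_het replicate 3, came from the same libraries and is no separate support. The weights called 367 of all tested genes higher and 292 lower, and leaving out PKP2_het replicate 3 called 1.81% higher and 1.11% lower.

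PKP2_het replicate 3 was also low for ALDH4A1 and ALDH5A1. ALDH4A1, of proline breakdown, was at 33.6, 33.8, 11.5 and 31.8 FPKM in PKP2_het and 24.1, 22.8, 21.4 and 33.2 FPKM in WT. ALDH5A1, which oxidises succinic semialdehyde, was at 25.6, 25.9, 6.73 and 25.1 FPKM in PKP2_het and 22.1, 19.5, 20.0 and 34.4 FPKM in WT. In both genes PKP2_het replicate 3 was the lowest of the 8 libraries. All 19 matched aldehyde dehydrogenases together summed to 173, 175, 92.4 and 172 FPKM in PKP2_het libraries and 139, 134, 142 and 168 FPKM in WT libraries. The part of the high mitochondrial share of PKP2_het replicate 3 in these values was not tested.

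**Figure D4:**
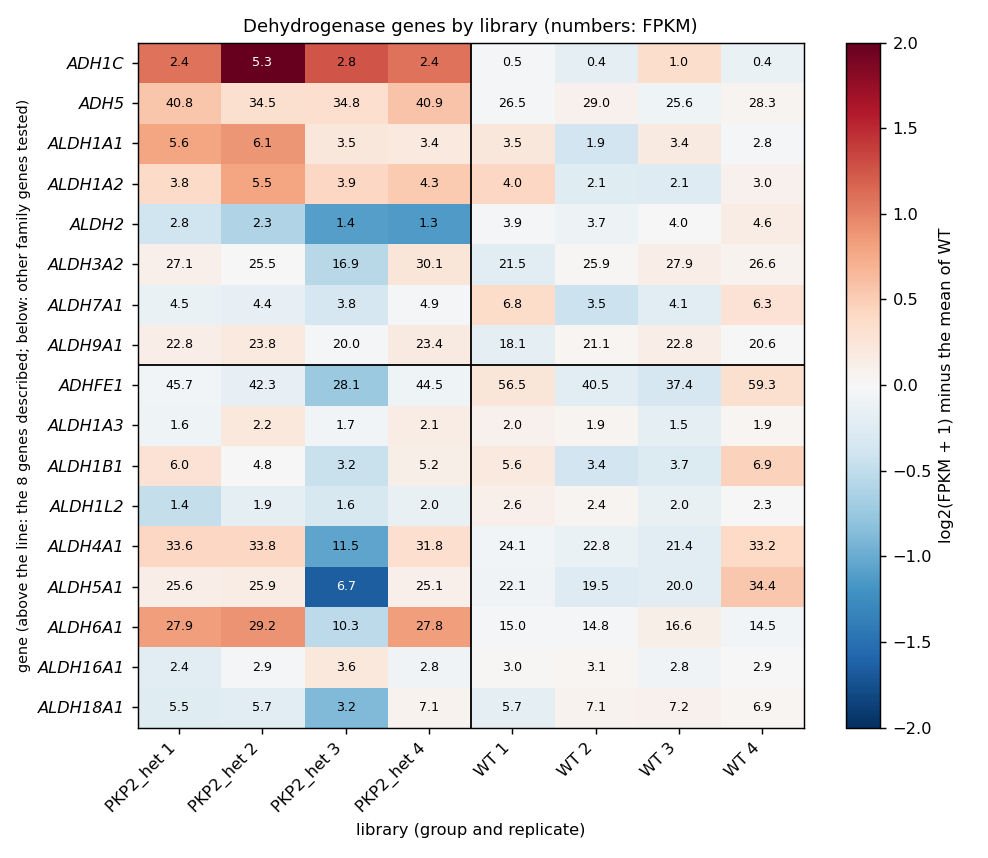
Level of the 8 genes (above the line) and of the other dehydrogenases tested (below it) in each library, PKP2_het left and WT right, with FPKM as numbers and colour for log2(FPKM + 1) minus the WT mean of the gene. ADH1C is red in all 4 PKP2_het libraries and ALDH2 blue, and the column of PKP2_het replicate 3 is blue for ALDH4A1, ALDH5A1 and ALDH6A1.

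Other enzymes that remove aldehydes and carbonyls had no gene called by limma or by limma voom among 11 tested of 16 listed. They held 4 with an unadjusted p under 0.05, beside 1381 of the 10757 genes tested in all. The median log2 difference of these enzymes was 0.11, with 8 positive and 3 negative. DCXR, the dicarbonyl and xylulose reductase, was at 35.4, 28.1, 44.3 and 29.6 FPKM in PKP2_het and at 24.4, 21.9, 20.3 and 22.5 FPKM in WT, with no overlap (log2 difference 0.58, limma adjusted p = 0.104). AKR1B1, the aldose reductase, lay the other way without overlap, at 63.0, 53.6, 43.9 and 63.0 FPKM in PKP2_het and 70.9, 82.2, 68.9 and 86.3 FPKM in WT (log2 difference -0.47, limma adjusted p = 0.203). Limma with library quality weights, which called more genes in all, called both (adjusted p = 0.0313 for DCXR and 0.0363 for AKR1B1). GSTA4, a glutathione transferase that acts on 4-hydroxynonenal, had a log2 difference of 0.51 with overlapping groups (limma adjusted p = 0.302). None of these differences passed the adjustment in the unweighted fit. Of all tested genes, 4.86% lay without overlap in the direction of DCXR and 4.33% in that of AKR1B1.

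Aldehyde-forming enzymes, 7 tested of 11 listed, had no gene called by limma or limma voom, none at an unadjusted p under 0.05 and a median log2 difference of 0.01. MAOA, the monoamine oxidase that turns noradrenaline and serotonin into aldehydes, was at 19.2, 16.9, 24.3 and 16.0 FPKM in PKP2_het and at 19.1, 12.5, 12.6 and 14.4 FPKM in WT (log2 difference 0.36, limma adjusted p = 0.417). CYP2E1, the ethanol-oxidising cytochrome, was listed at 0 FPKM in every library.

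Around the retinaldehyde dehydrogenases, genes of retinoid uptake, binding and storage (4 tested of 13) and of retinol and retinal conversion (6 tested of 12) had no member called by limma or limma voom, with median log2 differences of 0.15 and -0.21. At an unadjusted p under 0.05 stood 1 gene of uptake and 3 of conversion, beside 1381 of the 10757 genes tested in all. RDH13, a mitochondrial retinol dehydrogenase, was at 12.8, 11.7, 14.0 and 13.7 FPKM in PKP2_het and at 7.64, 9.95, 8.39 and 10.2 FPKM in WT (log2 difference 0.49, limma adjusted p = 0.084). RDH11, a microsomal retinal reductase, was at 7.95, 6.97, 5.18 and 5.87 FPKM in PKP2_het and at 9.40, 8.34, 10.5 and 8.97 FPKM in WT (log2 difference -0.47, limma adjusted p = 0.150). Neither gene overlapped between the groups and they lay in opposite directions. Of all tested genes, 4.86% had every PKP2_het library above every WT library and 4.33% the reverse. Of the retinoid hydroxylases, CYP26B1 was at 0.630, 0.609, 0.132 and 0.177 FPKM in PKP2_het and at 0.263, 0.170, 0.320 and 0.142 FPKM in WT, with overlapping groups. CYP26A1 reached at most 0.032 FPKM and CYP26C1 and CYP27C1 were listed at 0 FPKM, so none of the 4 passed the filter.

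Among retinoic acid receptors and response genes, 11 were tested of 13 listed, 1 was called higher and none lower, and the median log2 difference was -0.11. The called gene was RARRES2, which encodes the secreted adipokine chemerin and is named for its induction by retinoids in human skin. RARRES2 was at 84.8, 58.4, 71.8 and 57.2 FPKM in PKP2_het libraries and at 29.9, 28.6, 39.5 and 25.8 FPKM in WT libraries. Its groups did not overlap, as in 4.86% of all tested genes in that direction. RARRES2 was higher by 1.11 on the log2 scale (SE 0.17, limma adjusted p = 0.0109). The call was lost in 1 of 17 other ways of processing, with libraries scaled to equal sums (log2 difference 0.85, limma adjusted p = 0.553). The receptors RARA, RARB, RARG, RXRA, RXRB and RXRG all overlapped between the groups, with log2 differences from -0.24 to 0.14.

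MEIS1, a homeobox gene of the same list, was at 0.411, 1.05, 0.889 and 0.720 FPKM in PKP2_het and at 2.19, 2.41, 1.10 and 2.42 FPKM in WT (log2 difference -0.76, limma adjusted p = 0.073). MEIS1 was called lower without WT replicate 3 (log2 difference -0.93, limma adjusted p = 0.0134), which brings the called genes of the list to 2, and also with library quality weights and with equal sums. TGM2, a transglutaminase gene known as a retinoid target, had a log2 difference of -0.60 (limma adjusted p = 0.306). With all libraries and no weights, RARRES2 was 1 called gene of 53 tested in the other dehydrogenase and pathway lists together (1.89%). Of all tested genes 1.86% were called in either direction, so in that fit these lists were at the background share. Other settings called more. Without PKP2_het replicate 3, ALDH6A1 and AASS were added, where 1.81% of all tested genes were called higher and 1.11% lower. Library quality weights added ALDH6A1, AKR1B1, DCXR, MEIS1, TMLHE and AASS, where 367 tested genes were called higher and 292 lower. RARRES2 was called in both of these settings too. The match to the background share applies to the unweighted fit of all libraries and was not worked out for these settings.

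Partners of ALDH9A1 and ALDH7A1 in carnitine synthesis and lysine breakdown (5 tested of 7) had no gene called by limma or limma voom and a median log2 difference of -0.07. At an unadjusted p under 0.05 they held 1 gene, beside 1381 of the 10757 genes tested in all. TMLHE, which starts carnitine synthesis in mitochondria, was at 5.71, 4.88, 3.07 and 4.56 FPKM in PKP2_het and at 6.30, 8.43, 8.79 and 7.96 FPKM in WT, with no overlap (log2 difference -0.69, limma adjusted p = 0.079, and 0.00570 with library quality weights). Of all tested genes, 4.33% lay without overlap in that direction. AASS, the first enzyme of lysine breakdown upstream of ALDH7A1, was at 4.73, 4.67, 1.71 and 4.14 FPKM in PKP2_het and at 2.28, 2.77, 2.49 and 2.28 FPKM in WT. AASS was not called with all libraries (log2 difference 0.42, limma adjusted p = 0.477) and was called higher without PKP2_het replicate 3 (0.68, limma adjusted p = 0.00579). AASS thus showed the same library pattern as ALDH6A1, high in PKP2_het replicates 1, 2 and 4 and lowest in PKP2_het replicate 3.

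**Figure D5:**
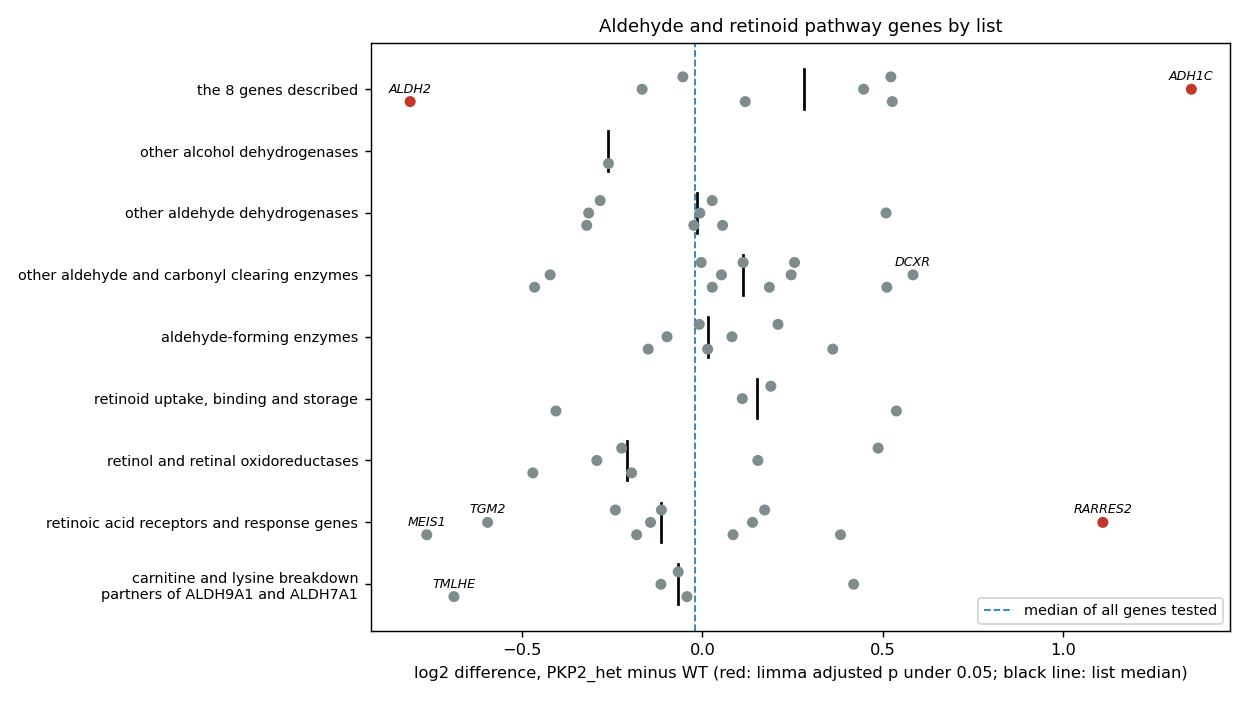
Log2 difference of PKP2_het minus WT (horizontal axis) of each tested gene in the dehydrogenase and pathway lists, with red for genes called by limma, a black line for the list median and a dashed line for the median of all tested genes (-0.02). ADH1C, ALDH2 and RARRES2 are the called genes.

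No marker of another cell type was called by limma or by limma voom. Limma with library quality weights called the fibroblast marker MFAP5 and the adipocyte marker CFD higher and the endothelial marker CLDN5 lower. Those weights called 367 higher and 292 lower of all 10757 genes. At an unadjusted p under 0.05 stood 2 fibroblast markers, MFAP5 higher and PI16 lower, and 1 marker each of smooth muscle, macrophages and adipocytes. Of the 10757 genes tested in all, 1381 passed that cut. Fibroblast markers had 5 positive and 4 negative log2 differences. Adipocyte markers had 4 positive and 1 negative, FABP4 at -1.10. Macrophage markers summed to 20.5 to 58.7 FPKM in PKP2_het and 38.2 to 53.6 FPKM in WT, with all 7 tested members negative (median log2 difference -0.44). Endothelial markers were also all negative, 8 of 8, with a median of -0.26, though EGFL7 (-0.02) and TIE1 (-0.03) were near 0. Of all 10757 tested genes, 5846 were negative. T and NK cell markers summed to 2.38 to 5.28 FPKM in PKP2_het and 5.17 to 6.43 FPKM in WT. Adipocyte markers summed to 194 to 305 FPKM in PKP2_het and 148 to 289 FPKM in WT, and Schwann cell markers to 20.2 to 28.3 FPKM in PKP2_het and 21.5 to 34.2 FPKM in WT. Mesothelial and epicardial markers summed to 2.6 to 4.0 FPKM in PKP2_het and 2.84 to 4.89 FPKM in WT. Of the mesothelial and epicardial markers, TBX18 averaged 2.30 FPKM in PKP2_het and 1.87 FPKM in WT, WT1 averaged 0.807 FPKM in PKP2_het and 0.931 FPKM in WT, and KRT19 reached 1.18 and 1.48 FPKM in WT replicates 2 and 3 and at most 0.043 FPKM in the other 6 libraries. The group means of MSLN, UPK3B, KRT7, LRRN4, BNC1 and CALB2 were at most 0.06 FPKM. The part of any of these cell types in the dehydrogenase levels was not tested.

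The genes whose levels ran most like each member over the 8 libraries are given as a description. They were picked from all tested genes as the most alike in these same libraries, so a high r follows from the choice. Genes with a LOC name or no symbol were left out. By Pearson's r of log2(FPKM + 1), ADH1C ran with RHOU (r = 0.963), and ADH5 with GNMT (0.974) and MVK (0.964). ALDH1A1 ran with RECQL (0.964) and SUZ12 (0.945), and ALDH1A2 with MANBA (0.967) and SLIT3 (0.946). ALDH2 ran with TBC1D19 (0.983) and HVCN1 (0.981), and ALDH3A2 with PHKA1 (0.986) and LTN1 (0.984). ALDH7A1 ran with SMC2 (0.969) and JCHAIN (0.960), and ALDH9A1 with NMNAT2 (0.965) and DCAKD (0.960). SMC2, a condensin subunit gene picked in this way, had the split of ALDH7A1 in WT. It was at 2.76 and 2.69 FPKM in WT replicates 1 and 4 and 0.769 and 0.911 FPKM in WT replicates 2 and 3, beside 1.56, 1.10, 0.997 and 1.35 FPKM in PKP2_het libraries.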

How the data were processed

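RNA of right ventricular tissue was sequenced as 150 bp read pairs from 4 PKP2_het and 4 WT libraries and, per the submitters' processing notes, alignment used HISAT2 2.0.5. How fragments were counted, with what strand setting and annotation, and how they were normalised is not given in the sources used here. Deposited by the authors was a table of FPKM values for 30550 genes, of which 30335 had the same start and end in RefSeq's Sscrofa11.1. FPKM times gene length gave whole fragments for 100% of values within 0.01, and the library factors equalled median-of-ratios factors (largest relative difference 1.1e-15), so FPKM sums differ between libraries.

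Genes reaching 1 FPKM in 4 or more libraries were compared as log2(FPKM + 1) in limma 3.58.1 (R 4.3.3), with a variance trend, p-values from both tails and adjustment after Benjamini and Hochberg at 0.05, and the fit was tested on simulated data. A fold on this scale is understated for low genes. The targeted gene PKP2 was compared with an exact permutation test. Python 3.11.15, pandas 2.3.3, SciPy 1.17.1 and matplotlib 3.10.9 were used for summaries.

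The members and lists were chosen with earlier results of these data known. The text names all members, PKP2, called genes and up to 3 others of smallest p in each list, the 3 neighbours on each side of ADH1C and the 2 genes most like each member, and any further gene was named with its values known. A few results that this rule gives are not reported here. List genes were matched by symbol (158) or by ID or annotation in the table (11), and 5 were not matched. Alternatives covered pseudocounts, filters, scalings, limma voom, library weights, a replicate block and leaving out each library.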

Additional observations from a re-analysis of the deposited data

Results flagged for a closer look

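ADH1C in PKP2_het replicate 2, at 5.276 FPKM, lay far from the other libraries of its group, which ran from 2.35 to 2.78 FPKM. Its gap to the nearest library was 0.853 of the range of the group, above Dixon's critical value at the 95% level for 4 samples. The check covered 20 groups of 4 values, and chance marks about 1 group in 20. Without PKP2_het replicate 2, the log2 difference of ADH1C was 1.15, given as a description since these values chose the gene.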

How the results depend on the processing

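Genes called by limma numbered 124 higher and 76 lower in PKP2_het. The counts were 52 higher and 34 lower with at least 1 FPKM in all 8 libraries, 50 higher and 45 lower with equal FPKM sums, and 367 higher and 292 lower with library quality weights. They ran from 75 (without WT replicate 4) to 195 (without PKP2_het replicate 3) higher and from 40 (without WT replicate 4) to 119 (without PKP2_het replicate 3) lower when 1 library was left out. With the replicate block they were 66 higher and 39 lower. The labels do not say whether the numbers pair the libraries. Same-numbered libraries had correlations of -0.39, 0.03, -0.23 and 0.20 between their deviations from the group means. Only replicate 4 correlated best with its own number. So few correlations, open to the influence of single libraries, cannot settle whether the libraries are paired. Without WT replicate 2 there were 77 higher and 42 lower. The cause of these shifts was not tested.

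On the log2 scale, ADH1C was at 2.23 with a pseudocount of 0.1, 1.72 with 0.5 and 2.41 with limma voom, and ALDH2 at -1.09 with 0.1 and -1.11 with voom. With equal sums ADH5 was at 0.19 and ALDH9A1 at -0.14. ADH1C lost its call in 1 of 16 alternatives, the replicate block, and was outside the filter in all 8 libraries. ADH5 was called in 2 of 17 alternatives, without PKP2_het replicate 3 and with library quality weights. ALDH1A1 and ALDH1A2 were called in 1 each, the library quality weights, which called the most genes of all settings. Because these values chose the members, calls of members kept or lost are a description and no support. The difference in mean PKP2 level was -23.1 FPKM, -32.3 FPKM with equal sums (exact permutation p = 0.0857) and -26.2 to -18.2 FPKM without 1 library (exact permutation p = 0.0571 each time, the smallest that 3 against 4 libraries can give).

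Depth limits ADH1C most, with 18 fragments in each of 2 WT libraries. With 4 libraries a group and no label on animals, litters or batches, the genotype and any such difference cannot be told apart.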

Other observations

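RBP7, a retinol-binding protein gene, was at 0.954, 0.792, 4.06 and 4.09 FPKM in PKP2_het libraries and at 5.02, 3.65, 0.666 and 4.97 FPKM in WT libraries. FABP4, a fatty acid-binding protein gene of adipocytes and small-vessel endothelium, was at 16.1, 12.0, 86.7 and 62.1 FPKM in PKP2_het and at 176, 115, 9.58 and 116 FPKM in WT. Both genes were low in the same 3 libraries, PKP2_het replicates 1 and 2 and WT replicate 3, and high in the other 5, a split that crosses the groups. ALDH1A1 was highest in PKP2_het replicates 1 and 2 but was not set apart in WT replicate 3. The pattern was noticed in the data and no test was made of it.

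ALDH3A1, an aldehyde dehydrogenase known from the cornea, was at 1.63 FPKM in WT replicate 3 and between 0.055 and 0.177 FPKM in the other 7 libraries. RDH16, a microsomal retinol dehydrogenase known from liver, was at 2.11 FPKM in PKP2_het replicate 3 and between 0.270 and 0.527 FPKM in the other 7 libraries. CRABP2, a retinoic acid-binding protein gene, was listed at 0 FPKM in all 4 PKP2_het libraries and at 0.0785, 0.0561, 0.159 and 0.114 FPKM in WT libraries, levels too low to pass the filter.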
